A study of Mus musculus with 6 samples.

Results

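Chromatin remodelling complexes are the molecular machines that slide, eject or exchange nucleosomes, and the genes described here are 54 protein-coding rows, of 41921 rows in the deposited count table, whose symbols begin with the names of their subunits (Chd, Smarc, Arid, Ino80, Srcap, Ep400, Adnp, Baz, Bptf, Brd, Atrx and Pbrm1). The rule reads names and no measured value, though it was written with earlier results of these data known. It also takes some bromodomain and ARID genes that are grouped below outside the complexes. Each complex is built around an ATPase of the Snf2 type that pulls DNA across the histone octamer, and around it sit scaffold subunits, DNA-binding ARID subunits and reader subunits whose bromodomains bind acetylated histone tails. The main families are SWI/SNF (BAF and PBAF), which opens enhancers and promoters; CHD, which includes the ATPases of the NuRD deacetylase complex; ISWI, which spaces nucleosomes evenly; and INO80, SRCAP and p400, which exchange histone H2A variants. In macrophages and osteoclast precursors such complexes act at inducible genes together with lineage transcription factors.

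RNA was sequenced from RAW264.7, an established mouse monocyte/macrophage cell line labelled as wild type, which forms osteoclast-like cells when given RANKL, the cytokine that drives osteoclast formation. There were 6 libraries: 3 labelled RANKL and 3 labelled albiflorin, a monoterpene glycoside of peony root. The protocol given for every sample, in both groups, is osteoclast induction with RANKL at 50 ng/mL in a culture that had been confluent for 3 days; the labels do not say in other words that the albiflorin cultures also had RANKL, and give no dose or time for albiflorin. The labels do not tell whether replicates were separate cultures, so each p rests on the variation among these 6 libraries, part or all of which may be technical. Libraries held 13673284 to 15489482 counts. Of 8 macrophage markers 7 were found, with a summed level of 3446 to 3651 CPM (counts scaled to library size, with TMM factors) under RANKL and 3402 to 3580 CPM under albiflorin. The 8 osteoclast markers summed to 57.0 to 61.6 and 63.3 to 72.1 CPM, and Calcr, the calcitonin receptor gene of mature osteoclasts, had 0 counts. Markers of stroma, T cells, B cells, epithelium and endothelium each summed to under 1 CPM in every library. In bulk RNA, fewer cells of one kind and less RNA per cell cannot be told apart.

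The genes taken by the name rule were mostly lower in the albiflorin libraries. Of the 52 members with enough counts to test, 30 fell and 1 rose (edgeR quasi-likelihood test, Benjamini-Hochberg adjusted p under 0.05), where 11.4% of all tested genes were called lower and 12.4% higher. The falls were modest: the median log2 fold change of all tested members was -0.24, beside 0.0056 over all tested genes, and that of the 30 called lower was -0.32. The 54 genes together took 0.707%, 0.736% and 0.714% of all counts in the RANKL libraries and 0.61%, 0.564% and 0.624% in the albiflorin libraries, so the groups did not overlap. For 33 of the 52 tested members the libraries of the 2 groups did not overlap, against 40.1% of all tested genes. Albiflorin replicate 2 was the lowest library for 36 of the 52, and the like share over all genes was not computed. Without that library 22 members fell and 1 rose, where 7.45% of all genes tested were lower.

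The direction of the members followed the length of their mRNA, as it did across the whole table. Over the 52 members fold change and mRNA length had a Spearman rho of -0.767, and over 10452 protein-coding genes, which are not independent replicates, rho was -0.622; all points share the same 6 libraries. The members are long: their median mRNA had 5892 nt, beside 2986 nt for protein-coding genes tested. Among mRNAs shorter than 3000 nt, 0 of 7 members fell and 1 rose, and of all protein-coding genes of that length 1.79% were lower and 23.7% higher. From 3000 to 6000 nt 9 of 21 members fell and 0 rose, where 15.3% of all genes fell and 3.18% rose. From 6000 to 9000 nt 10 of 13 fell and 0 rose, against 48.1% and 0.858%, and from 9000 nt upwards 11 of 11 fell, against 55.9% lower and 0.643% higher. In the longest class the median log2 fold change was -0.44 for members and -0.28 for all protein-coding genes. With the per-library trend on mRNA length removed, 8 members were called lower and 1 higher (5.59% and 4.89% of all tested genes), and the median of the members was -0.04, beside -0.02 over all tested genes. Among the 8 were Chd3, Bptf, Arid1a, Ep400, Smarcc1, Chd7 and Adnp. Without trend removal, each of the 8 was also lower with all 6 libraries and with any 1 library left out. Each was lower too with a trend on the listed gene length removed in place of mRNA length. Leaving out a library was not combined with trend removal. On log2(FPKM + 1) Adnp alone of them was not called. In the gene-length setting 15 members were lower and 3 higher (7.96% and 7.18% of all tested genes): lower were the same 8 with Chd9, Smarcc2, Baz2a, Baz1a, Arid4a, Arid5b and Arid3a, and higher were Smarcb1, Brd8 and Smarcad1. The trend is in log2 CPM relative to each gene's mean over the 6 libraries. At the mRNA length of Bptf it stood at 0.14, 0.23 and 0.10 in the RANKL libraries. It stood at -0.12, -0.28 and -0.07 in the albiflorin libraries, so it also differed among replicates. Whether the length trend arose in the cells or in the libraries was not tested.

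**Figure D1:**
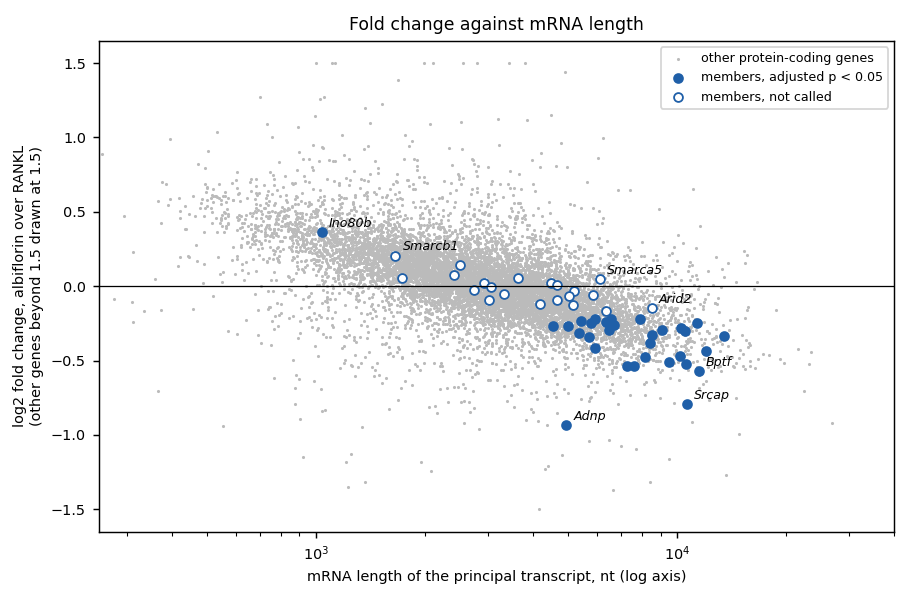
Log2 fold change (albiflorin over RANKL, vertical axis) against mRNA length in nt (log axis) for the 52 tested members (blue, filled when adjusted p was under 0.05) and the other tested protein-coding genes (grey; 10 beyond 1.5 are drawn at 1.5). The cloud of grey points falls from left to right, the 11 members of 9000 nt or more all lie below 0, and Adnp and Srcap lie furthest down.

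**Figure D2:**
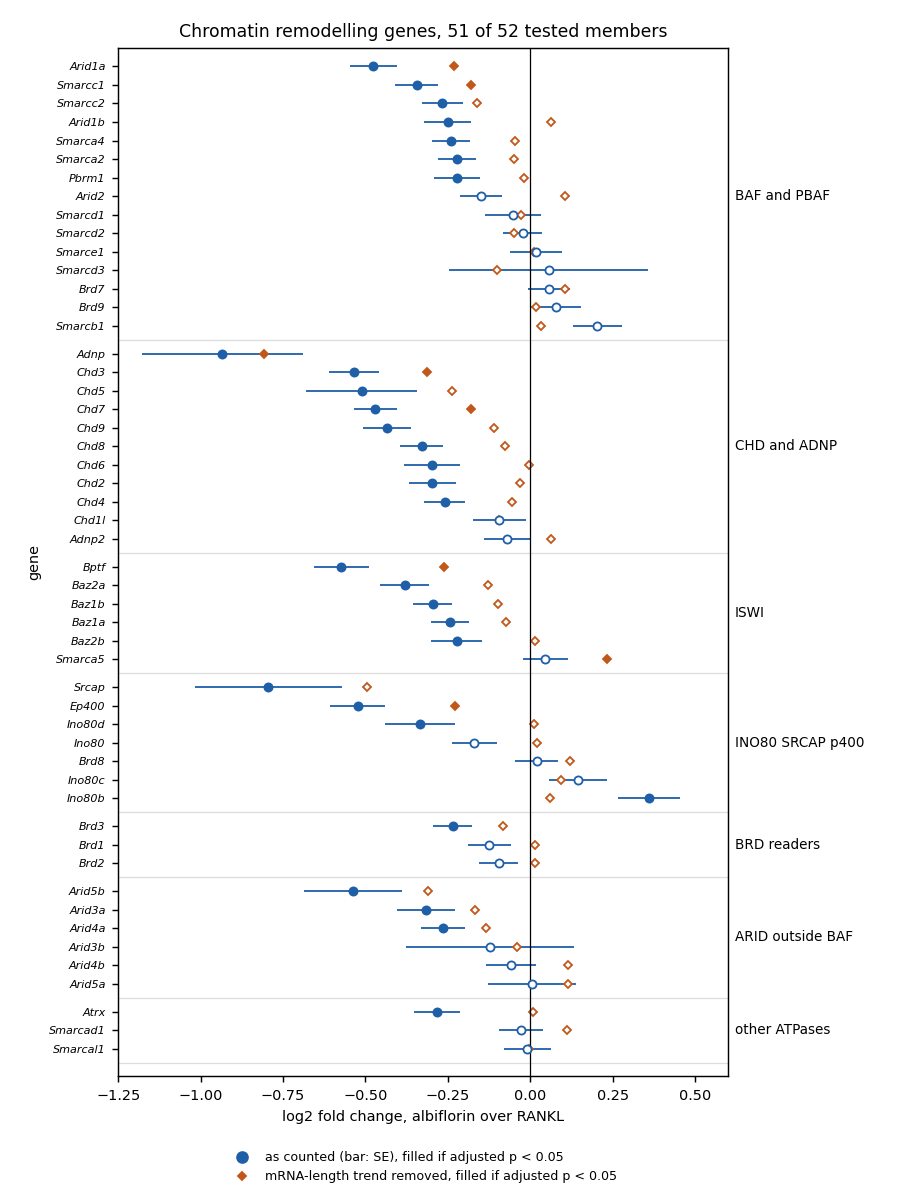
Log2 fold change with its SE for 51 of the 52 tested members by family (circles), and the same with the mRNA-length trend removed (diamonds); filled symbols had an adjusted p under 0.05. Of the circles 30 are filled, 1 of them (Ino80b) above 0, and of the diamonds 8, 1 of them (Smarca5) above 0.

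Among the BAF and PBAF genes, 7 of 15 fell and 0 rose (11.4% and 12.4% of all tested genes). They were the ATPases, large scaffold subunits and the ARID subunits Arid1a and Arid1b, whereas the large ARID subunit gene Arid2 was not called. After removal of the mRNA-length trend 2 of the 15 were lower and 0 higher (5.59% and 4.89% of all tested genes). Arid1a encodes the large DNA-binding subunit that defines canonical BAF (MGP_C57BL6NJ_G0029328, chromosome 4, 140840528 to 140924164 in the deposited annotation). It stood at 303.6, 316.8 and 330.9 CPM in the RANKL libraries and at 239.5, 203.2 and 241.1 CPM in the albiflorin libraries. Every albiflorin library lay below every RANKL library, and the log2 fold change was -0.48 ± 0.0708 (SE; edgeR adjusted p = 0.000438), or -0.23 with the mRNA-length trend removed (edgeR adjusted p = 0.0168). Its paralogue Arid1b stood at 104 ± 6.73 and 87.2 ± 6.52 CPM (SD, n = 3 per group; -0.25 ± 0.0709, edgeR adjusted p = 0.0178). That call ended when RANKL replicate 2 was left out (adjusted p = 0.0879), and likewise for albiflorin replicates 1 (0.0613) and 2 (0.0632), and the value was 0.06 with the mRNA-length trend removed (0.483).

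The paired core scaffolds of BAF fell together. Smarcc1, which encodes BAF155, stood at 190.1, 188.7 and 184.1 CPM under RANKL and at 146.9, 136.8 and 159.7 CPM under albiflorin. The 3 RANKL libraries were close together and all above the albiflorin libraries, with a log2 fold change of -0.34 ± 0.0648 (edgeR adjusted p = 0.00176). Smarcc2, which encodes BAF170, fell from 221 ± 4.8 to 184 ± 11.4 CPM (-0.27 ± 0.0622, edgeR adjusted p = 0.00617; with the mRNA-length trend removed 0.0545). Of the alternative ATPases, Smarca4 (BRG1) fell from 406 ± 5.92 to 343 ± 6.05 CPM (-0.24 ± 0.0572, edgeR adjusted p = 0.007) and Smarca2 (BRM) from 122 ± 0.792 to 105 ± 1.5 CPM (-0.22 ± 0.0573, edgeR adjusted p = 0.0105). Neither ATPase was called with the mRNA-length trend removed (-0.05 for each, adjusted p = 0.614 and 0.61), nor with the gene-length trend removed (0.0716 and 0.29). Pbrm1, the bromodomain scaffold of PBAF, had a log2 fold change of -0.22 (edgeR adjusted p = 0.0314). Its call ended when any one of RANKL replicates 1 (0.054) and 2 (0.159) and albiflorin replicates 1 (0.102) and 2 (0.081) was left out, and with the mRNA-length trend removed (0.856).

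The other 8 BAF and PBAF genes, most of them for smaller subunits, were not called. Smarcd2, a BAF60 subunit, stood at 114 ± 3.49 and 112 ± 2.07 CPM (-0.02 ± 0.0587, edgeR adjusted p = 0.817). Brd7, a PBAF reader, stood at 0.06 ± 0.0651 on the log2 scale, Brd9, the reader of non-canonical BAF, at 0.08 ± 0.0756, Smarce1 at 0.02 ± 0.0786 and Smarcd1 at -0.05 ± 0.0857. Smarcb1, the core subunit that docks on the nucleosome face, had the highest fold change of the family at 0.20 ± 0.075 (edgeR adjusted p = 0.0599). Its levels were 61.7, 58.1 and 59.2 CPM under RANKL and 68.7, 75.4 and 62.2 CPM under albiflorin, and without albiflorin replicate 3 it was called higher (0.27, adjusted p = 0.0139). It was also called higher with the gene-length trend removed (0.34, 0.00839), though not with the mRNA-length trend removed (0.03, 0.784); the listed gene length is 7869 and the mRNA 1660 nt. Arid2, the ARID subunit of PBAF, was not called (-0.15 ± 0.064, edgeR adjusted p = 0.105), and Smarcd3 was low at 1.83 ± 0.205 and 1.89 ± 0.592 CPM.

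In the CHD family, counted with Adnp and Adnp2, 9 of 11 genes fell and 0 rose (11.4% and 12.4% of all tested genes). Chd1l and Adnp2 were not called. The median mRNA of the 11 had 8509 nt, and they ran from 3008 nt (Chd1l) to 12008 nt (Chd9). Of protein-coding genes, 15.3% were lower at 3000 to 6000 nt, 48.1% at 6000 to 9000 nt and 55.9% from 9000 nt upwards. After removal of the mRNA-length trend 3 of the 11 were lower (5.59% of all tested genes). Chd7, the chromodomain ATPase mutated in CHARGE syndrome (MGP_C57BL6NJ_G0028453, chromosome 4, 5572377 to 5757166), had the smallest p of all members. It stood at 90.7, 93.7 and 89.4 CPM under RANKL and at 66.1, 61.8 and 69.6 CPM under albiflorin. The groups were far apart relative to their spread, with a log2 fold change of -0.47 ± 0.0655 (edgeR adjusted p = 0.000363). Chd3, an ATPase of NuRD (MGP_C57BL6NJ_G0018920, chromosome 11, 71884049 to 71910455), stood at 141.5, 150.8 and 144.2 CPM under RANKL and at 99.9, 88.7 and 112.7 CPM under albiflorin. It fell by 31.0% (log2 fold change -0.53 ± 0.0761, edgeR adjusted p = 0.000388) and, with the mRNA-length trend removed, had the smallest adjusted p of the members (-0.31 ± 0.0563, adjusted p = 0.00309). Chd4, the main NuRD ATPase and the most abundant member per length, fell by 16.5%, from 824 ± 8.86 to 688 ± 37.3 CPM (-0.26 ± 0.0621, edgeR adjusted p = 0.00713). Unlike Chd3 it was not called with the mRNA-length trend removed (-0.05, 0.505) or the gene-length trend removed (-0.12, 0.115), and the difference between the 2 genes is taken up as a share below.

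The other chromodomain genes were lower too, most of them only before the length trend was removed. Chd9 stood at 91.8, 99.98 and 87.7 CPM under RANKL and at 68.6, 63.8 and 74.2 CPM under albiflorin, again without overlap (-0.44 ± 0.0726, edgeR adjusted p = 0.000801). Chd8, a repressor of beta-catenin targets, fell from 189 ± 2.89 to 150 ± 12.5 CPM (-0.33 ± 0.0663, edgeR adjusted p = 0.0025), and Chd2 from 126 ± 7.41 to 103 ± 9.1 CPM (-0.30 ± 0.0719, edgeR adjusted p = 0.00765). With the mRNA-length trend removed Chd9 stood at -0.11 (0.205), Chd8 at -0.08 (0.387) and Chd2 at -0.03 (0.773). Chd6 (-0.30, edgeR adjusted p = 0.0186) lost its call without RANKL replicate 2 (0.102) or albiflorin replicate 2 (0.0688), and stood at -0.00 with the mRNA-length trend removed (0.985). The low-level, mainly neuronal Chd5 (10.3 ± 1.01 and 7.19 ± 1.71 CPM; -0.51, edgeR adjusted p = 0.0366) lost its call without any one of RANKL replicates 1 (0.0869) and 2 (0.135) and albiflorin replicate 2 (0.149), and with the mRNA-length trend removed (0.355). Chd1l, an ATPase activated by poly(ADP-ribose), stood at 35.9 ± 1.89 and 33.6 ± 0.984 CPM (-0.09 ± 0.0801, edgeR adjusted p = 0.43), and Adnp2 at 68.4 ± 3.36 and 65.2 ± 4.25 CPM (-0.07 ± 0.0702, 0.516).

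Adnp, which encodes the zinc-finger and homeodomain protein that pairs with CHD4, had the lowest fold change of all members, on few reads. The row (MGP_C57BL6NJ_G0027345, chromosome 2, 179087823 to 179115829) held 143, 129 and 125 counts under RANKL and 108, 36 and 60 under albiflorin. These are 10.5, 8.22 and 8.43 CPM against 7.12, 2.68 and 4.22 CPM, with albiflorin replicate 1 just below the lowest RANKL library, and a log2 fold change of -0.93 ± 0.243 (edgeR adjusted p = 0.0114). On log2(FPKM + 1) it was not called (0.0513). A second protein-coding row on the same strand, Gm20716, spans the whole of the Adnp row and had 0 counts in all 6 libraries. In the GENCODE M21 annotation of GRCm38, 82.1% of the exonic bases of Adnp also lie in exons of Gm20716, which leaves 957 bases to Adnp alone. Srcap is placed likewise: the protein-coding row Gm42715 spans 81.7% of it, and 61.7% of its exonic bases are shared in GENCODE M21. The sources used here do not say how reads on 2 genes were counted, so the levels of these 2 genes cannot be compared with those of other members, and the share of their transcripts that was counted is unknown. Of the 54 members, 1 other, Chd2, shared more than 10% of its exonic bases with genes on the same strand (18.4%). Without these 3 genes 27 members fell and 1 rose, and the median was -0.22. Exons on the opposite strand were not compared. Among rows on that strand, Gm44287 (1 to 6 counts) covers 51.2% of the Ino80b row and Smim4 (94 to 141 counts) 33.4% of the Pbrm1 row.

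In the ISWI family 5 of 6 tested genes fell (11.4% of all tested genes), and the gene of the ATPase was the exception. After removal of the mRNA-length trend 1 of the 6 was lower and 1 higher (5.59% and 4.89% of all tested genes). Smarca5 encodes SNF2H, the ATPase of the ACF, WICH and NoRC complexes (MGP_C57BL6NJ_G0034315, chromosome 8, 84565721 to 84610656). It stood at 213.0, 235.8 and 227.5 CPM under RANKL and at 217.4, 255.0 and 226.0 CPM under albiflorin. The groups overlapped (0.05 ± 0.069, edgeR adjusted p = 0.684). It was called higher after removal of the mRNA-length trend (0.23, adjusted p = 0.0442), whereas removal of the gene-length trend gave 0.18 (0.0816). The alternative ATPase gene Smarca1 had 0 counts in each of the 6 libraries; with 3 counts as the floor, a level of up to 0.219 CPM could have gone unseen in the shallowest (counting error only).

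All 5 members for large partner subunits of ISWI fell, and 1 of them was still called lower with the mRNA-length trend removed. The large ISWI partner gene Rsf1, which the name rule does not take, was not called (-0.09, edgeR adjusted p = 0.385). Bptf, the histone-reading subunit of NURF (MGP_C57BL6NJ_G0019709, chromosome 11, 113804822 to 113914617), stood at 206.5, 212.9 and 207.3 CPM under RANKL and at 155.0, 116.5 and 149.6 CPM under albiflorin. The RANKL libraries lay within a narrow band and albiflorin replicate 2 was lowest; the log2 fold change was -0.57 ± 0.0842 (edgeR adjusted p = 0.000415) and -0.26 with the mRNA-length trend removed (0.0127). Baz2a, the NoRC subunit that silences ribosomal DNA, fell from 120 ± 4.75 to 91.8 ± 9.58 CPM (-0.38 ± 0.0738, edgeR adjusted p = 0.00201). Baz1b, the WICH subunit also known as the Williams syndrome transcription factor, fell from 390 ± 2.01 to 318 ± 11.9 CPM (-0.30 ± 0.0585, edgeR adjusted p = 0.00225). Baz1a, the ACF subunit, fell from 140 ± 3.0 to 118 ± 0.667 CPM (-0.24 ± 0.0574, edgeR adjusted p = 0.00644). With the mRNA-length trend removed these 3 were not called (0.141, 0.205 and 0.396), whereas Baz2a (0.0151) and Baz1a (0.0257) were called with the gene-length trend removed. Baz2b was just past the threshold (-0.22, edgeR adjusted p = 0.0466). The call was lost on leaving out any one of RANKL replicates 2 (0.147) and 3 (0.124) and albiflorin replicates 1 (0.103) and 2 (0.184), and Baz2b stood at 0.01 with the mRNA-length trend removed (0.922).

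In the INO80, SRCAP and p400 family 3 of 7 genes fell and 1 rose (11.4% and 12.4% of all tested genes). After removal of the mRNA-length trend 1 of the 7 was lower and 0 higher (5.59% and 4.89% of all tested genes). Ep400, the ATPase that deposits H2A.Z in the TIP60 complex (MGP_C57BL6NJ_G0030321, chromosome 5, 117587040 to 117700302), stood at 194.7, 196.6 and 174.9 CPM under RANKL and at 138.7, 111.4 and 143.4 CPM under albiflorin. No library overlapped between the groups, and Ep400 fell by 30.5% (log2 fold change -0.52 ± 0.0833, edgeR adjusted p = 0.000647; with the mRNA-length trend removed -0.23, 0.019). Ino80b, a small subunit of INO80 (MGP_C57BL6NJ_G0031361, chromosome 6, 86412420 to 86416086), was the one called rise among the members. It stood at 21.1, 21.2 and 23.3 CPM under RANKL and at 28.3, 25.6 and 30.2 CPM under albiflorin (0.36 ± 0.0948, edgeR adjusted p = 0.0119). All 3 albiflorin libraries were above the RANKL libraries, but the call ended without albiflorin replicate 1 (0.0507) and with the mRNA-length trend (0.06, 0.78) or the gene-length trend (0.15, 0.335) removed; its mRNA has 1038 nt, the shortest of the members.

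The ATPase gene Ino80 itself was not called (74.8 ± 1.93 and 66.5 ± 4.91 CPM; -0.17 ± 0.0689, edgeR adjusted p = 0.0872), though it was without albiflorin replicate 3 (0.0328). Srcap, the ATPase that exchanges H2A for H2A.Z, held 85, 88 and 67 counts under RANKL and 61, 34 and 40 under albiflorin (-0.79 ± 0.222, edgeR adjusted p = 0.0166). Its call was lost on leaving out any one of RANKL replicates 1 (0.0656) and 2 (0.0595) and albiflorin replicate 2 (0.0619), and it ended also after removal of the mRNA-length trend (0.162). Ino80d (-0.33, edgeR adjusted p = 0.0314) lost its call without any one of RANKL replicates 1 (0.136) and 2 (0.0801) and albiflorin replicate 2 (0.123), and stood at 0.01 after removal of the mRNA-length trend (0.962); its groups overlapped. Ino80c (0.14 ± 0.0883, edgeR adjusted p = 0.259) and the TIP60 reader Brd8 (0.02 ± 0.0653, 0.863) were not called; Brd8 was called higher with the gene-length trend removed (0.20, 0.0437).

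To show the regulatory DNA of genes that moved differently within a family, the 250 bases before the RefSeq start (GRCm38.p6, all 4 on the minus strand, printed 5′ to 3′ along the gene) are given for Bptf, which fell, and the ISWI ATPase gene Smarca5, which was not called, and for Ep400, which fell, and Ino80b, which rose. The windows are chr11:107132148-107132397, chr8:80739460-80739709, chr5:110770718-110770967 and chr6:83125120-83125369. Capitals mark matches, on either strand, to any of 6 short motifs. The GC box was searched as GGGCGG, a letter string that Sp-family factors are known to bind. The other promoter element near start sites was CCAAT, the box of the NF-Y factor. For ETS factors the letters searched were CCGGAAG in either direction. AP-1, which includes the osteoclast factor Fos, was searched as TGANTCA and reads alike on both strands. The cyclic AMP response element was searched as TGACGTCA, a palindrome. The box for the TATA-binding protein was searched as TATAAA on both strands. Of these, the motifs in the 4 windows do not overlap.
Bptf: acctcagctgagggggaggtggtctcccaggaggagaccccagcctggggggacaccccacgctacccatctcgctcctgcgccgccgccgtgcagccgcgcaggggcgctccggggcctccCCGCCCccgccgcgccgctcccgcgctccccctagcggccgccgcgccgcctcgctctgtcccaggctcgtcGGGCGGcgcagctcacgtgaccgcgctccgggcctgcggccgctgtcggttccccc
Smarca5: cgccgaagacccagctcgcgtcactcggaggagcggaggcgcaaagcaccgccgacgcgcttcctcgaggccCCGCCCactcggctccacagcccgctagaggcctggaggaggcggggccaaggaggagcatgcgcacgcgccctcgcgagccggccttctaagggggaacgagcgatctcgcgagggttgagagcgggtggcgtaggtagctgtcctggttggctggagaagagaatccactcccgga
Ep400: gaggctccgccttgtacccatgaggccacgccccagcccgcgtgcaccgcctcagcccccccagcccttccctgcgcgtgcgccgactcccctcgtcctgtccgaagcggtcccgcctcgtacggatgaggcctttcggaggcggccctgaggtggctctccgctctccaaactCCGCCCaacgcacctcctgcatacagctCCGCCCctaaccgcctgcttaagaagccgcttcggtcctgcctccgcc
Ino80b: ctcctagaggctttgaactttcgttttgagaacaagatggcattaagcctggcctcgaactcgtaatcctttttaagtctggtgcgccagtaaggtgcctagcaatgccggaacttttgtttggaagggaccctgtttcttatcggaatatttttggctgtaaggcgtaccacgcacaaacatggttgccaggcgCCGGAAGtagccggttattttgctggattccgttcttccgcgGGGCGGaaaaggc
Bptf had 79.2% G and C, Ep400 70.0%, Smarca5 69.2% and Ino80b 50.0%. GC boxes numbered 2 in Bptf, 2 in Ep400, 1 in Smarca5 and 1 in Ino80b, and Ino80b also had 1 ETS core. Windows were found for 41 of the 54 members (50 windows), and in every window the 250 bases before the start were searched. A GC box lay in 74.0% of them, against 32.7% of all 32851 windows, which include non-coding genes, a CCAAT box in 12 of the 50 (33.8% of all), an ETS core in 14.0% (6.9%), a TATA box in 6.0% (12.4%) and an AP-1 site in 2.0% (6.7%). The cyclic AMP response element lay in 1 member window (1.5% of all windows). The median G and C content was 66.6% for the members and 52.4% for all windows. These are matches of letters and no measure of binding.

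Of the bromodomain genes outside the remodellers, Brd3 fell, and Brd2 and Brd1 were not called. Brd3, a reader of acetylated histones of the BET group, fell from 125 ± 1.54 to 106 ± 3.71 CPM (-0.24 ± 0.0589, edgeR adjusted p = 0.00921) and was not called after removal of the mRNA-length trend (-0.08, 0.329). Brd2 stood at 406 ± 6.37 and 380 ± 13.8 CPM (-0.10 ± 0.0588, edgeR adjusted p = 0.257), and Brd1, a subunit of histone acetyltransferase complexes, at 128 ± 5.73 and 117 ± 7.17 CPM (-0.12 ± 0.0648, 0.18).

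**Figure D3:**
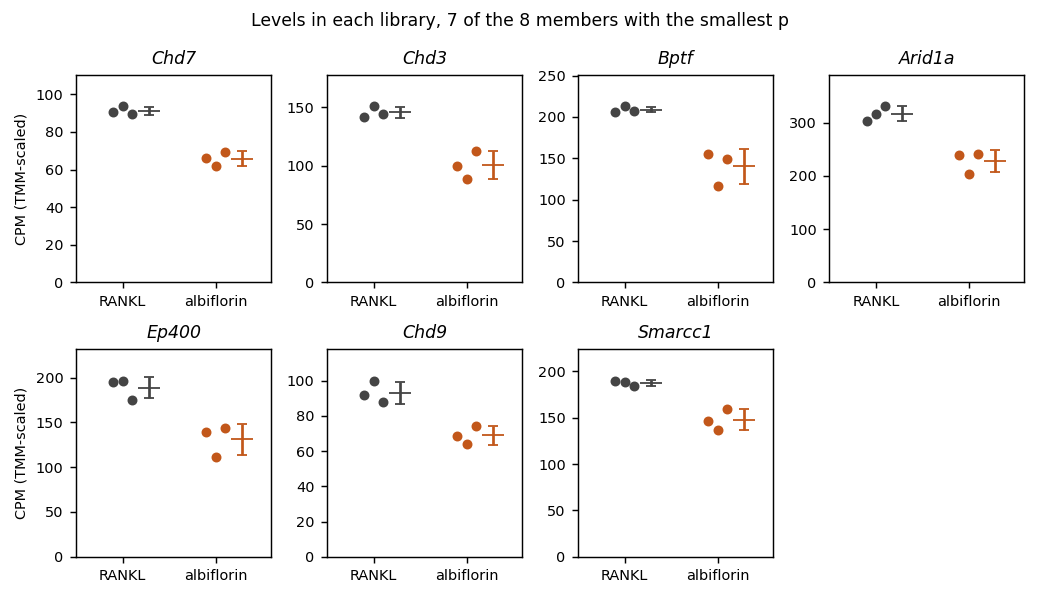
CPM in each library (points) with the group mean and SD (bars, n = 3) for 7 of the 8 members with the smallest p. In all 7 panels the 3 RANKL points lie above the 3 albiflorin points, and albiflorin replicate 2, the middle point, is the lowest.

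ARID genes outside BAF held 3 falls among 6 tested (11.4% of all tested genes), and 0 after removal of the mRNA-length trend (5.59%). Arid4a, a partner of the SIN3 corepressor, fell from 87.4 ± 2.56 to 72.7 ± 5.01 CPM (-0.27 ± 0.0671, edgeR adjusted p = 0.00975; 0.155 with the mRNA-length trend removed). Arid5b stood at -0.54 (edgeR adjusted p = 0.0158) and Arid3a at -0.32 (0.0169). Arid5b lost its call without any one of RANKL replicate 2 (0.0758) and albiflorin replicates 1 (0.0618) and 2 (0.058), and Arid3a without RANKL replicate 2 (0.0719) or albiflorin replicate 1 (0.092); with the mRNA-length trend removed their log2 fold changes were -0.31 (adjusted p = 0.141) and -0.17 (adjusted p = 0.206). Arid4b (-0.06 ± 0.0751, edgeR adjusted p = 0.621), Arid5a (0.01 ± 0.133, 0.985) and Arid3b (-0.12 ± 0.254, 0.776) were not called, and Arid3c, with 0 to 3 counts per library, was not tested. Among the ATPases that act alone or with other partners, Atrx, which places histone H3.3 at repeats, fell from 361 ± 21.8 to 297 ± 23.3 CPM (-0.28 ± 0.0694, edgeR adjusted p = 0.0081). With the mRNA-length trend removed Atrx stood at 0.01 (0.934). Smarcad1 (-0.03 ± 0.067, edgeR adjusted p = 0.799) and the replication-fork enzyme gene Smarcal1 (-0.01 ± 0.0722, 0.952) were not called, and Smarcad1 was called higher with the gene-length trend removed (0.19, 0.0417).

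Counted by role, 13 of 18 tested ATPase genes fell and 0 rose, with a median log2 fold change of -0.29. Of 34 genes of other subunits and readers 17 fell and 1 rose, with a median of -0.19. Over all tested genes 11.4% were lower and 12.4% higher. The median mRNA had 7885 nt for the ATPases and 5082 nt for the others, and with the mRNA-length trend removed the medians were -0.05 and -0.02. Then 3 of the 18 ATPase genes were lower and 1 higher. Of the 34 others 5 were lower and 0 higher (5.59% and 4.89% of all tested genes). On log2(FPKM + 1) 19 members fell and 1 rose (6.85% and 9.29% of all tested genes). The 11 calls that ended there were those of Adnp (0.0513), Chd2 (0.059), Arid3a (0.0596), Arid5b (0.0732), Pbrm1 (0.0866), Arid1b (0.0869), Chd5 (0.112), Chd6 (0.115), Ino80d (0.134), Srcap (0.146) and Baz2b (0.163).

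Levels between genes were compared on the authors' FPKM scale, which divides by the listed gene length. Chd4 was highest, at 102 ± 1.16 FPKM under RANKL and 85.2 ± 4.81 FPKM under albiflorin, followed by Smarca4 (62.4 ± 0.867 and 52.7 ± 0.995 FPKM) and Brd2 (55.8 ± 0.835 and 52.04 ± 2.01 FPKM). Under albiflorin the last pair did not differ beyond their spread. Smarca5 stood at 29.0 ± 1.5 and 29.9 ± 2.49 FPKM, and Bptf at 14.8 ± 0.256 and 9.88 ± 1.48 FPKM. The listed length can be longer or shorter than the principal mRNA, at 13667 against 6492 nt for Baz1b and 4494 against 7581 nt for Arid5b, so this order of levels also depends on the lengths listed.

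Shares were computed within 8 pairs of paralogues, of which 7 are described. Chd3 made up 14.0%, 14.8% and 14.5% of the summed FPKM of Chd3 and Chd4 in the RANKL libraries and 12.3%, 11.4% and 12.9% in the albiflorin libraries, 2.23 points less on average, without overlap. Arid1a made up 77.1% ± 1.56 and 74.2% ± 0.986 of Arid1a and Arid1b. For both pairs the exact two-sided permutation test gave p = 0.1, the smallest that 3 against 3 libraries allow, and 0.267 after adjustment over the 8 pairs measured, so no pair could pass. Smarca4 held 80.1% ± 0.196 and 79.9% ± 0.353 of Smarca4 and Smarca2 (exact p = 0.6), and Smarcd1 held 23.6% ± 0.874 and 23.3% ± 0.255 of Smarcd1 and Smarcd2 (exact p = 0.5). For the pairs Smarcc1 with Smarcc2, Baz1a with Baz1b and Baz2a with Baz2b the groups overlapped, with exact p of 0.2, 0.3 and 0.2. Smarca1 was at 0, so its pair with Smarca5 was not compared.

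**Figure D4:**
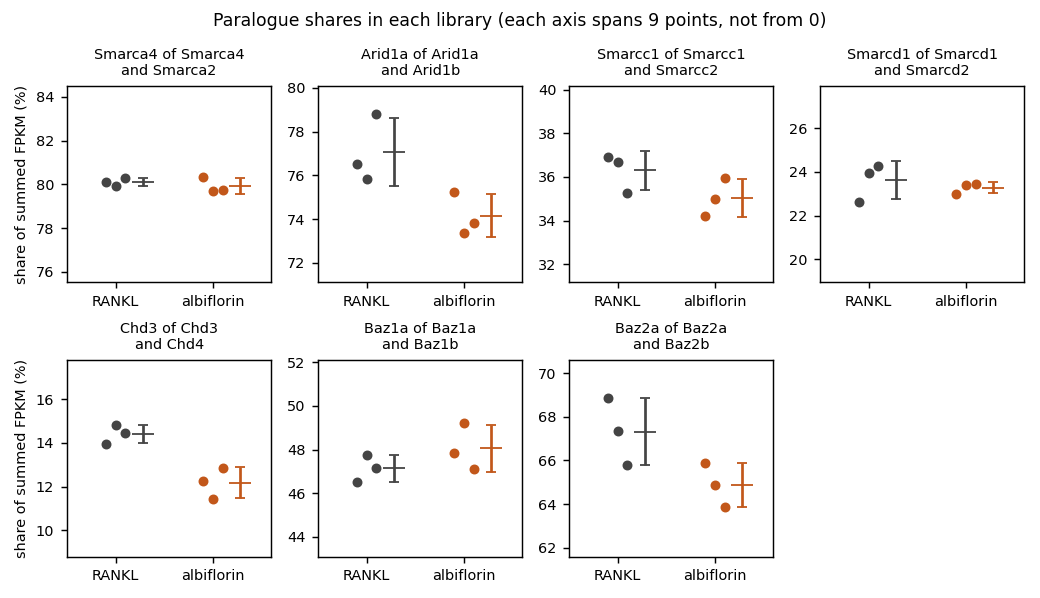
Share of the first-named gene in the summed FPKM of each of 7 pairs, in percent, for each library (points) with the group mean and SD (bars, n = 3); every vertical axis spans 9 percentage points and does not start at 0. The groups are apart for Arid1a and Chd3 and overlap for the other 5 pairs.

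Subunit genes that the name rule does not take were called in both directions. Of 66 listed partners 59 were tested, 8 rose and 10 fell (12.4% and 11.4% of all tested genes), with a median log2 fold change of 0.02 and a median mRNA of 2402 nt; with the mRNA-length trend removed 3 rose and 3 fell (4.89% and 5.59% of all tested genes). These counts lie near the shares of all tested genes. Among NuRD partners (2 higher and 2 lower of 11) Hdac2, a histone deacetylase, stood at 0.26 ± 0.0731 (edgeR adjusted p = 0.0171) and the scaffold genes Gatad2a and Gatad2b at -0.24 ± 0.0628 (0.0113) and -0.22 ± 0.0613 (0.0157). Hdac2 lost its call without any one of RANKL replicate 2 (0.0853) and albiflorin replicates 1 (0.07) and 2 (0.0752), and Gatad2a (0.0619) and Gatad2b (0.0774) without albiflorin replicate 1. With the mRNA-length trend removed Gatad2a was still called (0.039) and Gatad2b (0.971) and Hdac2 (0.12) were not. Among partners of INO80, SRCAP and TIP60 (4 higher and 4 lower of 24) the giant scaffold gene Trrap fell (-0.36 ± 0.0674, edgeR adjusted p = 0.00176; 0.785 with the mRNA-length trend removed), while Ruvbl2, a AAA+ ATPase shared by these complexes, rose from 128 ± 5.56 to 160 ± 6.66 CPM (0.33 ± 0.0617, 0.00179). Ruvbl2 was called higher with the mRNA-length trend removed as well (0.25, adjusted p = 0.00593). Znhit1, a small SRCAP subunit, rose by 0.39 (0.00323; 0.954 with the mRNA-length trend removed). The histone-fold subunits of ISWI complexes Chrac1 (0.38, edgeR adjusted p = 0.00581) and Pole3 (0.23, 0.0239) rose, neither with the mRNA-length trend removed (0.879 and 0.371), and Pole3 lost its call without any one of RANKL replicates 2 (0.0815) and 3 (0.063) and albiflorin replicate 2 (0.119). Rsf1, the partner in the RSF complex, was not called (-0.09, edgeR adjusted p = 0.385) but was higher after removal of the mRNA-length trend (0.23, 0.0256). Of 11 BAF partners 1, Dpf2, was called lower (-0.22, edgeR adjusted p = 0.0449) and 0 higher; it lost that call without any one of RANKL replicates 1 (0.152) and 3 (0.145) and albiflorin replicates 2 (0.163) and 3 (0.054), and, with a log2 fold change of -0.20, after removal of the mRNA-length trend (0.086). Actb (0.18, edgeR adjusted p = 0.0633) and Ss18 (-0.15, 0.119) were not called. Of 10 other Snf2-type genes and partners 3 were lower and 0 higher: Rad54l2 (-0.34, edgeR adjusted p = 0.0068), Ttf2 (-0.22, 0.0269) and Btaf1 (-0.19, 0.0347). With the mRNA-length trend removed their log2 fold changes were -0.07 (adjusted p = 0.492), -0.11 (0.205) and 0.03 (0.78), and the last pair also lost their calls on leaving out either albiflorin replicate 1 or 2 or any RANKL library (0.0575 to 0.116).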

How the data were processed

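Titles gave the group of each RNA-seq library, and column names (group letter with replicate number) gave its columns. The deposited counts are whole reads per gene, and the FPKM values are the authors' own, per the file headers. DESeq2 1.42.0, featureCounts 2.0.6-p3, fastp, HISAT2 2.2.1 and CASAVA 1.8 are listed, without role or order, per the submitters' processing notes. Neither the genome build nor the use of strand is given in the labels or headers; identifiers carry the C57BL/6NJ prefix and coordinates are those of the table.

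All 41921 rows entered edgeR 4.0.16 (R 4.3.3): filterByExpr, TMM scaling, quasi-likelihood test on group alone, Benjamini-Hochberg over the 13158 genes tested. Fold changes (log2) set albiflorin over RANKL; the SE is the absolute value over the square root of F. The length trend is a lowess curve (span 0.3), fitted per library (prior count 2, genes with a mean log2 CPM over 3). It runs on each gene's log2 CPM minus that gene's mean over all libraries, so a length-related group difference is removed with it. The length is that of the APPRIS principal mRNA in GENCODE M21, matched by symbol (54 of 54 members). The curve was subtracted as an offset, and genes without such a length took the curve on the listed length. The edgeR fit and the removal of a trend on listed length were tested on simulated data. The simulated trend was the same in every albiflorin library, and removal of the mRNA-length trend was not simulated. Other alternatives were RLE scaling, DESeq2, limma-voom 3.58.1, other filters, protein-coding rows alone, log2(FPKM + 1) and log2(FPKM + 0.1), the replicate block and leaving out each library. A member that entered every count is not reported here singly. Members and lists were chosen with earlier results of these data known. Named were all ATPases, up to 4 called genes per family and direction, up to 3 not called with high FPKM, and the other members for completeness; for partner lists, the 3 with the smallest p.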

Additional observations from a re-analysis of the deposited data

How the results depend on the processing

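The counts of members called, 31 in all, were also 31 with each of RLE scaling, DESeq2, limma-voom, no filter or a stricter filter on low counts, and protein-coding rows alone. They changed to 18 with the gene-length trend removed and to 9 with the mRNA-length trend removed, where fewer genes of the whole table were called as well, and to 20 on log2(FPKM + 1) and on log2(FPKM + 0.1). The median log2 fold change of the members became -0.0769 and -0.0432 in the 2 trend settings. With 1 library left out the members called ranged from 22 (without RANKL replicate 2) to 33 (without albiflorin replicate 3), and the median from -0.257 to -0.211. The whole table moved as well. Without RANKL replicate 2, 6.85% of all tested genes were lower and 7.57% higher, and without albiflorin replicate 3, 12.28% and 13.09%. With the replicate block 29 members were called; Pbrm1 (adjusted p = 0.0591) and Baz2b (0.0548) were not. Same-numbered libraries correlated at 0.0219, -0.0433 and -0.0664 in their deviations from the group means, and those of unlike number at -0.0241 to 0.0723. These correlations show no pairing by number, but with 3 libraries per group they cannot exclude it. Among members named singly, the sign turned for Arid1b (0.0629), Ino80d (0.0109), Baz2b (0.0136) and Atrx (0.00948) with the mRNA-length trend removed, and for Baz2b (0.0262) and Smarcad1 (0.185) with the gene-length trend removed. Signs of members called in neither fit were not compared. Low counts limit Adnp, Srcap, Smarcd3 and Arid3b.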

Other observations

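Chd1, the founding CHD gene, has no symbol in the deposited table, but a row without symbol or biotype carries a protein match to it in the deposited description. That row stood at 174.0, 188.7 and 174.0 CPM in the RANKL libraries and at 158.2, 160.5 and 162.4 CPM in the albiflorin libraries. The groups did not overlap, and the log2 fold change was -0.16 ± 0.0596 (edgeR adjusted p = 0.0655), so it was not called; with the gene-length trend removed it stood at -0.03 (0.776). It was left out of the counts of members because the row has no symbol.

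The row Gm42715, which overlaps Srcap on the same strand, held 4, 19 and 30 counts under RANKL and 16, 18 and 13 under albiflorin. Its RANKL replicate 1 was the lowest of the 6 libraries, whereas Srcap was highest there by CPM, at 6.24.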
